A study of Mus musculus with 10 samples.

Results

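Mouse osteoblast precursor cells that were given no drug appear here in 2 kinds of control culture: library A-5, labelled untreated, and libraries A0 and B0, labelled 0 µM β-ecdysterone. The genes described are those whose level in A-5 lies 2-fold or more outside both 0 µM libraries, with at least 50 counts in at least 1 of the 3 libraries. Of 12606 genes with that many counts, 531 meet the rule: 231 were higher in A-5 (1.83% of the genes tested) and 300 were lower (2.38%). The count of members in each list below is to be read beside these shares. The members were chosen by these differences, so the differences are a description and carry no test.

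The study grew cells with the plant steroid β-ecdysterone at 0, 100, 150 or 200 µM for 5 or 10 days and sequenced messenger RNA from 10 libraries. All libraries are labelled as C57BL/6 newborn cells of the third generation; the titles call them MC3T3-E1, a precursor line from mouse skull, while the source field calls them bone marrow mesenchymal stem cells. A0 stands for 0 µM at 5 days and B0 for 0 µM at 10 days. A-5 and B-4 are untreated cells in standard medium with no time on the label. The other 6 libraries are the treated ones, 1 for each dose above 0 and day. The study's methods name standard medium for the 0 µM and treated cells as well. The study's methods give 3 samples a group, but the deposited data hold 1 library for each dose and day and the labels name no pooling, so no difference has a replicate: intervals and floors cover counting error alone, and what sets A-5 apart as a culture and what sets it apart as a library cannot be told apart. A-5 holds 28772087 counts, A0 48951468 and B0 31300928, B-4 holds 29789271, and the treated libraries hold 27108562 to 58218009.

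MC3T3-E1 cells divide as fibroblast-like precursors until they crowd, then lay down a matrix of type I collagen and turn on bone matrix genes such as bone sialoprotein and osteocalcin. The matrix of such cells also holds small leucine-rich proteoglycans, which coat collagen fibrils, and matricellular proteins, which signal to cells rather than bear load. Many matrix, contractile and cytokine genes of these cells respond to crowding, serum and time in culture.

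Levels are given in CPM, counts divided by the scaled total of the library, with the scaling taken over all 10 libraries. Differences are log2 ratios of A-5 to A0 and to B0, in that order, scaled over the 3 libraries; a difference of 1 is 2-fold, and negative values are lower in A-5. Across the tested genes the median absolute log2 difference was 0.25 between A-5 and A0, 0.27 between A-5 and B0, and 0.11 between A0 and B0, so the 0 µM libraries lay closer to each other than either lay to A-5, although they are 5 days apart. Between A0 and B0, 190 of the 12606 genes (1.51%) were 2-fold or more apart, 59 of them higher at 10 days and 131 lower. The median difference of A-5 from the 0 µM mean was -0.03, with a quartile range of -0.28 to 0.22. A-5 lay above both 0 µM libraries, at any size, for 4915 genes (39.0%) and below both for 5876 (46.6%).

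Most members sit close to the limit. A-5 was 4-fold or more from the nearer 0 µM library for 31 higher and 65 lower genes, and 8-fold or more for 5 and 19. The median log2 distance to the nearer library was 1.30 for the higher genes and -1.41 for the lower ones. Just inside the limit on the high side are Rasgef1a (5.12 CPM in A-5, 2.58 in A0 and 0.825 in B0), Morn2 (10.9 CPM in A-5, 5.51 in A0 and 3.998 in B0) and Ifit3b (8.74 CPM in A-5, 3.52 in A0 and 4.38 in B0). Just outside are Slc27a1, Magi2 and Scn2a, each 0.99 (log2) above A0. On the low side Iqgap2 (0.1305 CPM in A-5, 1.72 in A0 and 0.317 in B0), 2010111I01Rik (21.8 CPM in A-5, 45.01 in A0 and 44.2 in B0) and Haus4 (19.6 CPM in A-5, 40.1 in A0 and 48.3 in B0) are just inside. Muc2 (0.7502 CPM in A-5, 1.58 in A0 and 2.28 in B0), 1700020L24Rik (1.04 CPM in A-5, 2.22 in A0 and 2.16 in B0) and Cenps (1.76 CPM in A-5, 3.64 in A0 and 4.06 in B0) are just outside. Depth bears on both groups: 71 of the 231 higher genes reached 50 counts in A-5 alone, and 135 of the 300 lower genes had under 50 counts in A-5. Against B0 alone, without A0, 451 genes were higher and 481 lower. Without the minimum of 50 counts, 1822 genes were higher and 1020 lower.

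**Figure D1:**
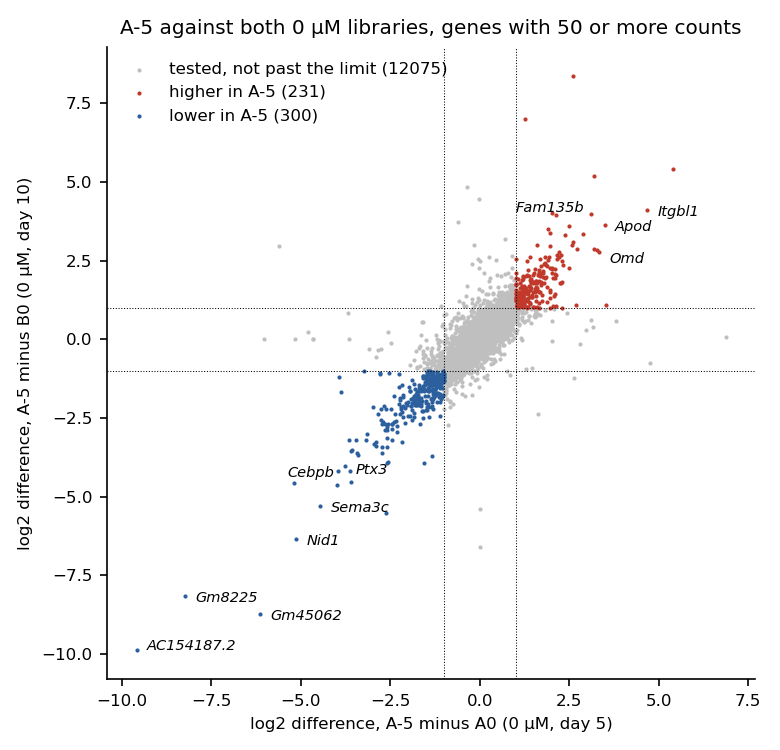
Log2 difference of A-5 from A0 (horizontal) and from B0 (vertical) for each of the 12606 tested genes, with dotted lines at 2-fold; red marks the 231 higher and blue the 300 lower genes. Itgbl1 lies at 4.68 and 4.11, and Nid1 at -5.14 and -6.34.

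The label of the cells was compared with marker lists of 12 genes each, summed in CPM over the list; the leading gene is the one with the highest FPKM, a level per length. Osteoblast lineage markers summed to 14997 in A-5, 22309 in A0 and 26647 in B0, led by Spp1, osteopontin, in A-5 and by Col1a2, a chain of type I collagen, in A0 and B0. Mesenchymal or fibroblast markers summed to 15774, 12919 and 13251, led by the calcium-binding protein S100a4 in A-5 and by the filament protein Vim in A0 and B0. Most CPM of that sum come from Fn1, fibronectin, at 10741 CPM in A-5, 7707 in A0 and 7883 in B0, which is not past the limit. All 3 libraries therefore carry strong mesenchymal and collagen signal, and the markers do not tell the line from marrow stromal cells. Smooth muscle or pericyte markers, led by Acta2, summed to 500.3, 1184 and 1729, with Kcnj8 and Abcc9 at 0 in all 3. Chondrocyte markers, led by the transcription factor Sox9 in A-5 and by Col2a1 in A0 and B0, summed to 68.7, 104 and 117, with Acan, Col9a1 and Hapln1 at 0. The osteoblast, smooth muscle and chondrocyte sums are lower in A-5, but a sum follows its most abundant genes. In the osteoblast marker list both type I collagen chains weigh most, while the median log2 difference of its 11 tested genes was 0.80. Of these 11, 7 lay above both 0 µM libraries and 3 under both, with 3 higher (Ibsp, Bglap and Bglap2) and 0 lower. Ibsp and Bglap reached the minimum count in A-5 alone, so they entered the 11, and this median, because they are high there. The longer osteoblast list described below, with 17 tested genes that include both, had a median of -0.02, which changes sign with the scaling. The mesenchymal list, whose sum is higher in A-5, had a median of -0.23, and the smooth muscle list -0.14. The chondrocyte median was -0.02 and turns positive with library totals. Macrophage or osteoclast markers, led by the protease Ctsk, which stromal cells also make, summed to 139, 98.99 and 113, with Tyrobp, Acp5 and C1qa at 0. Neural or glial markers, led by Tubb3, summed to 24.6, 23.3 and 22.7, with Snap25, Nefl and Nefm at 0. Adipocyte markers, led by the lipid droplet protein Plin4 in A-5 and by Fabp4 in A0 and B0, summed to 10.6, 7.51 and 6.82, with Adipoq, Cfd, Cidec and Car3 at 0. Of the 3 tested adipocyte markers Plin4 is a higher gene, at 8.15 CPM in A-5, 3.74 in A0 and 3.27 in B0, and the other 2 lay under both 0 µM libraries, for a median log2 difference of -0.48. The remaining lists are lower still. Skeletal muscle markers, led by Des in A-5 and A0 and by Mylpf in B0 and with Myod1, Myf5 and Myf6 at 0, summed to 5.904, 3.596 and 3.65. Endothelial markers, led by Egfl7 and with Cldn5 and Sox17 at 0, summed to 4.79, 3.86 and 3.62. Ttn, of the muscle list, is a higher gene at 84, 40 and 19 counts in A-5, A0 and B0, so it reached the minimum in A-5 alone. Vwf, of the endothelial list, is a higher gene at 2.67 CPM in A-5, 1.16 in A0 and 0.857 in B0, while Egfl7 lay under both 0 µM libraries, at 0.946 CPM in A-5, 1.68 in A0 and 1.24 in B0. Epithelial markers, led by Krt14 in A-5, Ovol1 in A0 and Cdh1 in B0 and with Krt18, Krt19 and Cldn4 at 0, summed to 2.58, 1.099 and 0.635. In bulk RNA, fewer cells of a type and less RNA per cell cannot be told apart, and the part of any cell mixture in the differences was not tested.

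The higher genes include some small leucine-rich proteoglycans and some bone matrix genes. Omd, osteomodulin, a keratan sulfate proteoglycan of mineralized tissue, was at 14.1 CPM in A-5, 1.38 in A0 and 2.03 in B0, with 100.1 in B-4 and 17.6 to 80.3 (median 47.5) in the treated libraries. Its log2 difference was 3.33 and 2.77. Ogn, osteoglycin, was at 614 CPM in A-5, 159 in A0 and 216 in B0, with 1845 in B-4 and 894 to 1359.8 (median 1056) under treatment, a difference of 1.97 and 1.52. For both genes A-5 stands above A0 and B0, and the untreated B-4 stands above A-5. Aspn, asporin, which binds collagen and TGF-β, was at 44.4 CPM in A-5, 14.3 in A0 and 15.6 in B0 and 74.1 in B-4, while the treated libraries held 131 to 643 (median 324). Podn, podocan, was at 61.2 CPM in A-5, 26.9 in A0 and 27.4 in B0, a difference of 1.21 and 1.17, and Ecm2, a related matrix protein, at 3.69 CPM in A-5, 1.54 in A0 and 1.52 in B0, a difference of 1.26 and 1.26. Of the 23 tested genes in the list of matricellular proteins and small proteoglycans, 4 were higher (Omd, Ogn, Aspn and Podn) and 7 were lower; the higher 4 are all small proteoglycans. Other small proteoglycans were not higher: Dcn was at 19.9 CPM in A-5, 26.8 in A0 and 16.2 in B0, Lum at 10.2 CPM in A-5, 13.05 in A0 and 6.22 in B0 and Bgn at 1473 CPM in A-5, 1369.6 in A0 and 1704 in B0, each between the 0 µM libraries. Fmod, at 86.2 CPM in A-5, 171 in A0 and 189 in B0, was just short of the limit on the low side, and Prelp was lower. The list of matricellular proteins and small proteoglycans had a median log2 difference of -0.04, beside -0.03 over all tested genes. That median turns positive with library totals.

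The bone matrix genes Ibsp, Dmp1, Bglap and Bglap2 were higher in A-5, at low levels. Ibsp and Bglap reached the minimum count of the rule in A-5 alone, so they were tested because they are high there. Ibsp, bone sialoprotein, had 72 counts in A-5, 34 in A0 and 27 in B0, or 2.35 CPM in A-5, 0.679 in A0 and 0.857 in B0. B-4 held 9.097 CPM and the treated libraries 73.1 to 813 (median 252), so A-5 stays far under every treated library. The log2 difference of Ibsp was 1.74 and 1.41. Dmp1, a matrix phosphoprotein of osteocytes, was at 11.03 CPM in A-5, 4.18 in A0 and 1.78 in B0, with 0.433 in B-4 and 0.263 to 1.74 (median 0.587) under treatment. Dmp1 thus runs the other way across the study: A-5 is above every other library. Bglap, osteocalcin, had 82, 24 and 7 counts in A-5, A0 and B0, a difference of 2.38 and 3.32. Its near-identical neighbour Bglap2 had 151, 65 and 26, a difference of 1.91 and 2.51, and reads of the pair may be exchanged between them, which makes each value uncertain.

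Runx2, Sp7, Spp1 and the type I collagen chains did not pass the limit. Runx2, the transcription factor that sets the lineage, was at 113 CPM in A-5, 95.2 in A0 and 88.4 in B0, a difference of 0.27 and 0.36. Sp7, osterix, which acts after Runx2, was at 9.62 CPM in A-5, 6.13 in A0 and 5.04 in B0 (0.67 and 0.94), and the treated libraries held 52.4 to 135 (median 65.01). Alpl, the alkaline phosphatase that frees phosphate for mineral, had 18, 0 and 2 counts, under the minimum of the rule. Spp1, osteopontin, was at 3174 CPM in A-5, 1738 in A0 and 1735 in B0, a difference of 0.89 and 0.88. Both chains of type I collagen pointed down: Col1a1 was at 4187 CPM in A-5, 8476 in A0 and 10407 in B0 (-0.99 and -1.30, just outside the limit) and Col1a2 at 7398 CPM in A-5, 11895 in A0 and 14293 in B0 (-0.66 and -0.94). In the osteoblast list of 17 tested genes, Ibsp, Bglap, Bglap2 and Dmp1 were higher and Msx2 was lower. The list median of -0.02 changes sign with the scaling.

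Among surface and secreted proteins, Itgbl1 (ENSMUSG00000032925, chromosome 14, 123659971 to 123975618 on GRCm38), a secreted protein with integrin-like repeats, has the largest distance from the nearer 0 µM library among higher genes that carry a symbol. It had 209 counts in A-5 and 11 in each of A0 and B0, or 6.82 CPM in A-5, 0.2198 in A0 and 0.349 in B0, with 9.56 in B-4 and 3.46 to 20.9 (median 10.3) under treatment. A-5 is thus within the treated range and the 0 µM libraries are under it. Apod, a lipid-binding lipocalin (ENSMUSG00000022548, chromosome 16, 31296192 to 31314808), was at 15.1 CPM in A-5, 1.32 in A0 and 1.17 in B0, with 78.8 in B-4 and 72.3 to 354 (median 165) under treatment, a difference of 3.49 and 3.64. Mme, neprilysin, a surface peptidase of stromal cells, was at 1692 CPM in A-5, 656 in A0 and 540.2 in B0, a difference of 1.39 and 1.66, and B-4 held 749.7. Its treated libraries held 227 to 346 (median 259), under all 4 undrugged libraries. Pdgfra, a growth factor receptor of mesenchymal cells, was at 884 CPM in A-5, 419.8 in A0 and 413 in B0, and Kitl, stem cell factor, at 83.4 CPM in A-5, 39.4 in A0 and 36.4 in B0. Tnfrsf11b, osteoprotegerin, the decoy receptor that holds back osteoclasts, was at 75.2 CPM in A-5, 27.7 in A0 and 29.6 in B0, a difference of 1.47 and 1.36. Agt, angiotensinogen, was at 16.9 CPM in A-5, 6.15 in A0 and 4.79 in B0, with 114 in B-4 and 229.6 to 1093 (median 454) under treatment. The list of growth factors and receptors had 25 tested genes, with these 3 higher (Pdgfra, Kitl and Tnfrsf11b) and 3 lower.

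Mmp13, the collagenase of bone turnover, was at 78.7 CPM in A-5, 18.7 in A0 and 29.3 in B0, with 606 in B-4 and 269 to 1552 (median 659) under treatment, a difference of 2.09 and 1.43. Serpine2, protease nexin, was at 138 CPM in A-5, 54.5 in A0 and 34.5 in B0, a difference of 1.36 and 2.01. Other matrix proteases were lower. Plau, urokinase, was at 10.1 CPM in A-5, 21.8 in A0 and 26.6 in B0 (-1.08 and -1.38), Mmp19 at 15.6 CPM in A-5, 39.1 in A0 and 47.2 in B0 (-1.30 and -1.59), and Adamts2, which trims procollagen, at 28.6 CPM in A-5, 66.1 in A0 and 63.9 in B0 (-1.18 and -1.15).

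Other genes far above both 0 µM libraries have varied roles. Fam135b, little studied, was at 29.3 CPM in A-5, 3.42 in A0 and 1.81 in B0, with 13.6 in B-4 and 1.02 to 5.98 (median 3.42) under treatment, a difference of 3.11 and 3.99. Ces2e, a carboxylesterase from a family of close copies, was at 20.8 CPM in A-5, 4.24 in A0 and 3.68 in B0 (2.31 and 2.49), and Hspa12a, a distant heat shock protein, at 12.3 CPM in A-5, 2.54 in A0 and 1.87 in B0 (2.28 and 2.69). Sned1, a matrix protein, was at 618 CPM in A-5, 148 in A0 and 147 in B0, a difference of 2.09 and 2.08. Hopx, a homeodomain protein that does not bind DNA, was at 121 CPM in A-5, 32.5 in A0 and 19.8 in B0, with 107 in B-4 and 11.1 to 30.8 (median 18.7) under treatment. For Hopx the untreated libraries A-5 and B-4 are both above the other 8. Dmpk, a protein kinase, was at 86.7 CPM in A-5, 25.6 in A0 and 16.6 in B0 (1.79 and 2.39), and the endocytic protein Reps2 at 19.6 CPM in A-5, 6.21 in A0 and 3.33 in B0 (1.68 and 2.55). Fos, an immediate early transcription factor, was at 61.9 CPM in A-5, 23.95 in A0 and 20.8 in B0, with 3.099 in B-4 and 3.63 to 12.9 (median 5.09) under treatment. It was the single higher gene among 29 tested immediate early and serum-responsive genes, of which Dusp5 (14.03 CPM in A-5, 35.5 in A0 and 35.3 in B0) was the single lower one. Each is 3.45% of that list, beside 1.83% higher and 2.38% lower over all tested genes.

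The higher genes also include abundant transcripts. S100a4 was at 839 CPM in A-5, 423 in A0 and 332 in B0, a difference of 1.01 and 1.35, and B2m, the light chain of class I antigen molecules, at 975 CPM in A-5, 436 in A0 and 431 in B0 (1.18 and 1.19). B2m was the single higher gene among 35 tested interferon and antigen presentation genes, and the proteasome subunit Psmb8 (7.89 CPM in A-5, 18.7 in A0 and 27.2 in B0) the single lower one. Each is 2.86% of that list, beside 1.83% higher and 2.38% lower over all tested genes. Of the 13 mitochondrially encoded genes, mt-Nd6 was at 557 CPM in A-5, 132 in A0 and 145 in B0 (2.10 and 1.95) and mt-Nd3 at 414 CPM in A-5, 159 in A0 and 164 in B0 (1.40 and 1.35), both subunits of complex I. The whole list had a median of 0.34, with A-5 above both 0 µM libraries for 12 of 13. Mitochondrial genes took 5.45% of all counts in A-5, 4.53% in A0, 4.53% in B0 and 5.98% in B-4, and 4.52% to 10.6% under treatment. The part of this share in the other differences was not tested.

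The lower genes include basement membrane, guidance and matricellular genes. Nid1 (ENSMUSG00000005397, chromosome 13, 13437551 to 13512269), nidogen, which links laminin to type IV collagen, had 12 counts in A-5, 795 in A0 and 1140 in B0, or 0.391 CPM in A-5, 15.9 in A0 and 36.2 in B0. B-4 held 0.2999 CPM and the treated libraries 7.46 to 30.4 (median 16.5), and the log2 difference was -5.14 and -6.34. Both untreated libraries are thus near 0 for Nid1 and all 8 others are at 7 CPM or more. Sema3c (ENSMUSG00000028780, chromosome 5, 17574281 to 17730268), a secreted guidance protein, was at 0.391 CPM in A-5, 9.85 in A0 and 17.5 in B0, with 0.7997 in B-4 and 1.11 to 4.27 (median 1.92) under treatment, a difference of -4.45 and -5.30. Lama4, a laminin chain, was at 67.4 CPM in A-5, 221 in A0 and 269 in B0, a difference of -1.69 and -1.98. Ctgf, a matricellular protein and a target of the Yap and TGF-β pathways, was at 5.38 CPM in A-5, 58.2 in A0 and 69.1 in B0, with 6.198 in B-4 and 14.3 to 39.3 (median 33.1) under treatment, a difference of -3.40 and -3.66. Its relatives Cyr61, at 352 CPM in A-5, 742 in A0 and 858 in B0, and Wisp2, at 65.8 CPM in A-5, 239 in A0 and 255 in B0, also lay under both 0 µM libraries. Thbs1, thrombospondin, was at 141 CPM in A-5, 752 in A0 and 869 in B0, with 128 in B-4 and 326 to 552 (median 454) under treatment, a difference of -2.39 and -2.61. Here too A-5 and B-4 are under the other 8 libraries.

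Tnc and Postn show another layout. Tnc, tenascin, was at 3.33 CPM in A-5, 30.9 in A0 and 31.4 in B0, with 21.7 in B-4 and 347 to 1430.4 (median 835) under treatment, a difference of -3.17 and -3.21. Postn, periostin, was at 230.3 CPM in A-5, 635 in A0 and 963 in B0, with 2417 in B-4 and 15791 to 36411 (median 22423) under treatment, a difference of -1.44 and -2.05. In both, A-5 is the lowest of the 10 libraries and the 0 µM libraries are nonetheless far under the treated ones. Fndc1, which holds fibronectin type III domains, was at 1.21 CPM in A-5, 15.9 in A0 and 11.6 in B0, with 1.63 in B-4 and 13.1 to 33.9 (median 22.1) under treatment, a difference of -3.64 and -3.20. Prelp, a proteoglycan of the same class as Omd, was at 10.1 CPM in A-5, 22.6 in A0 and 24.9 in B0 and is the member of that class on the lower side.

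Some collagen genes, and enzymes that modify or link collagen, were lower as well. Col3a1, type III collagen, was at 422 CPM in A-5, 925 in A0 and 1060.3 in B0, with 809.5 in B-4 and 2253 to 4445 (median 3454) under treatment, a difference of -1.11 and -1.32. Col5a1, which starts fibrils, was at 506 CPM in A-5, 1184 in A0 and 1456 in B0 (-1.20 and -1.51), and Col2a1, the collagen of cartilage, at 20.03 CPM in A-5, 50.2 in A0 and 66.7 in B0 (-1.30 and -1.72). Lox, the oxidase that crosslinks collagen, was at 382 CPM in A-5, 989 in A0 and 1534 in B0, a difference of -1.35 and -1.99. B-4 held 1417 CPM of Lox and the treated libraries 989 to 2317 (median 1354), all above A-5. Aebp1, a collagen-binding protein, was at 344 CPM in A-5, 1019 in A0 and 1051 in B0, and P4ha2, which hydroxylates collagen prolines, at 36.4 CPM in A-5, 93.9 in A0 and 96.04 in B0. For P4ha2, B-4 held 36.3 CPM and the treated libraries 35.9 to 55.7 (median 40.4). A-5 is thus within the treated range for P4ha2 and the 0 µM libraries are above it. Of 21 tested collagens 3 were lower and 0 higher, and A-5 lay under both 0 µM libraries for 17, above both for 4. Their median was -0.50, beside -0.03 over all tested genes, and B0 lay 0.18 above A0.

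Contractile genes of the smooth muscle type lie on both sides. Acta2, smooth muscle actin, was at 232 CPM in A-5, 884 in A0 and 1377 in B0, with 391 in B-4 and 899 to 1876 (median 1123) under treatment, a difference of -1.90 and -2.56. Tagln, transgelin, was at 8.71 CPM in A-5, 33.7 in A0 and 38.3 in B0, with 7.297 in B-4 and 23.7 to 37.3 (median 33.1) under treatment, a difference of -1.92 and -2.12. Myl9, a myosin light chain, was at 55.1 CPM in A-5, 134 in A0 and 170.1 in B0 (-1.25 and -1.61). In the opposite direction lay Mylk, the kinase of that light chain, at 205 CPM in A-5, 85.6 in A0 and 85.3 in B0 (1.28 and 1.28), and Itga8, an integrin chain, at 18.6 CPM in A-5, 7.29 in A0 and 8.19 in B0 (1.37 and 1.19). Of 14 tested genes of the list, 3 were lower and 2 higher.

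Bmp4 (ENSMUSG00000021835, chromosome 14, 46383520 to 46390669), a bone-inducing ligand, had 13 counts in A-5, 261 in A0 and 182 in B0, or 0.424 CPM in A-5, 5.21 in A0 and 5.77 in B0. B-4 held 0.966 CPM and the treated libraries 4.51 to 7.79 (median 5.65), and the difference was -3.44 and -3.60. As with Nid1, A-5 and B-4 hold little and the other 8 libraries hold more. Bmp2, another ligand of the pathway, had 0, 2 and 0 counts in A-5, A0 and B0, too few to compare. Among targets of this pathway, Id3 was at 16.05 CPM in A-5, 41.3 in A0 and 36.3 in B0, with 7.96 in B-4 and 25.98 to 104 (median 64.7) under treatment, a difference of -1.34 and -1.16, and Msx2, counted in the osteoblast list, at 1.63 CPM in A-5, 3.88 in A0 and 6.73 in B0. Fstl1, a secreted antagonist, was at 125 CPM in A-5, 263 in A0 and 291 in B0 (-1.05 and -1.20). Tmem100 was at 0.391 CPM in A-5, 1.18 in A0 and 0.857 in B0 (-1.45 and -1.02). Its values rest on few counts, 12 in A-5 and 27 in B0. The ligand Gdf6, at 5.71 CPM in A-5, 2.28 in A0 and 1.36 in B0, was the single higher gene of the BMP and TGF-β list, which had 4 lower (Bmp4, Id3, Fstl1 and Tmem100) among 30 tested and a median of -0.17. In the Wnt list of 20 tested genes, the ligand Wnt5b (1.5 CPM in A-5, 5.77 in A0 and 3.81 in B0) was lower and 0 were higher, with a median of -0.48. The KEGG group of Wnt signaling, 140 tested, had a median of -0.10 and that of TGF-β signaling, 68 tested, -0.07.

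Several cytokine and acute phase genes were lower in A-5, and 0 of the list of such genes were higher. Ptx3, which is outside the list (ENSMUSG00000027832, chromosome 3, 66219910 to 66225805), a secreted pentraxin of innate immunity and matrix, was at 22.02 CPM in A-5, 307 in A0 and 361 in B0, with 24.5 in B-4 and 44.5 to 96.2 (median 54.6) under treatment, a difference of -3.77 and -4.02. Il6 was at 0.881 CPM in A-5, 5.83 in A0 and 4.28 in B0, with 0.2999 in B-4 and 0.155 to 0.685 (median 0.356) under treatment, a difference of -2.63 and -2.20. The chemokine Ccl2 was at 14.2 CPM in A-5, 44.99 in A0 and 52.4 in B0, with 1.87 in B-4 and 0.772 to 2.29 (median 1.41) under treatment, a difference of -1.64 and -1.87. For Il6, A-5 sits between the 0 µM libraries and the other 7, and for Ccl2 the order is the same. Ccl7 was at 11.7 CPM in A-5, 27.3 in A0 and 32.3 in B0 (-1.19 and -1.44), and Ccl5 at 3.001 CPM in A-5, 7.35 in A0 and 9.77 in B0 (-1.25 and -1.67). Lcn2, a lipocalin that binds iron carriers, was at 33.5 CPM in A-5, 106 in A0 and 106 in B0 (-1.64 and -1.64). Its layout differs from that of Il6: B-4 held 115 CPM and the treated libraries 45.9 to 170 (median 70.3), all above A-5. Nos2, the inducible nitric oxide synthase, was at 4.53 CPM in A-5, 10.6 in A0 and 12.7 in B0 and the metalloreductase Steap4 at 5.09 CPM in A-5, 15.7 in A0 and 11.6 in B0. Il6, Ccl2, Ccl7, Ccl5, Lcn2, Nos2 and Steap4 are the 7 lower genes of 24 tested in the list, and the median of the list was -0.49. Il1r1, the receptor that carries the interleukin-1 signal, was at 11.7 CPM in A-5, 27.3 in A0 and 24.1 in B0 (-1.19 and -1.02).

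Cebpb and Cebpd, of the C/EBP family of transcription factors, were lower, while their relative Cebpa, at 1.11 CPM in A-5, 1.598 in A0 and 1.59 in B0, was not past the limit. Cebpb (ENSMUSG00000056501, chromosome 2, 167688915 to 167690418), a regulator of cytokine and adipocyte genes, was at 7.57 CPM in A-5, 95.2 in A0 and 139.5 in B0, with 15.9 in B-4 and 61.7 to 133 (median 78.2) under treatment, a difference of -3.62 and -4.18. Cebpd was at 24.5 CPM in A-5, 77.1 in A0 and 96.5 in B0, a difference of -1.63 and -1.96. A-5 and B-4 are the lowest libraries for Cebpb. Cebpd, with Errfi1 (23.6 CPM in A-5, 72.5 in A0 and 70.6 in B0), Nfil3 and Angptl4 (1.08 CPM in A-5, 4.22 in A0 and 4.54 in B0), makes up the 4 lower genes among 14 tested glucocorticoid-responsive genes, whose median was 0.03 and turns negative without A0.

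Growth factors and receptors close the lower side. Igf1, which drives growth of bone cells, was at 11.4 CPM in A-5, 39.8 in A0 and 38.3 in B0, a difference of -1.78 and -1.73, and Hgf at 1.08 CPM in A-5, 4.71 in A0 and 4.54 in B0, a difference of -2.05 and -2.01. Igfbp7, a binding protein, was at 17.8 CPM in A-5, 44.8 in A0 and 57.5 in B0. Vldlr, a lipoprotein receptor, was at 4.31 CPM in A-5, 29.5 in A0 and 54.1 in B0, with 36.8 in B-4 and 54.3 to 114 (median 80.5) under treatment, a difference of -2.74 and -3.62. Ntrk3, a neurotrophin receptor, was at 0.848 CPM in A-5, 8.07 in A0 and 7.27 in B0 (-3.15 and -3.01). Thy1, a surface protein used to mark stromal cells, had 4, 100 and 52 counts in A-5, A0 and B0, a difference of -3.46 and -3.20. The receptor Ednra, for endothelin, was at 4.04 CPM in A-5, 19.3 in A0 and 14.8 in B0 (-2.22 and -1.85), and the laminin-binding integrin chain Itga6 at 1.37 CPM in A-5, 3.28 in A0 and 3.46 in B0 (-1.20 and -1.29).

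**Figure D2:**
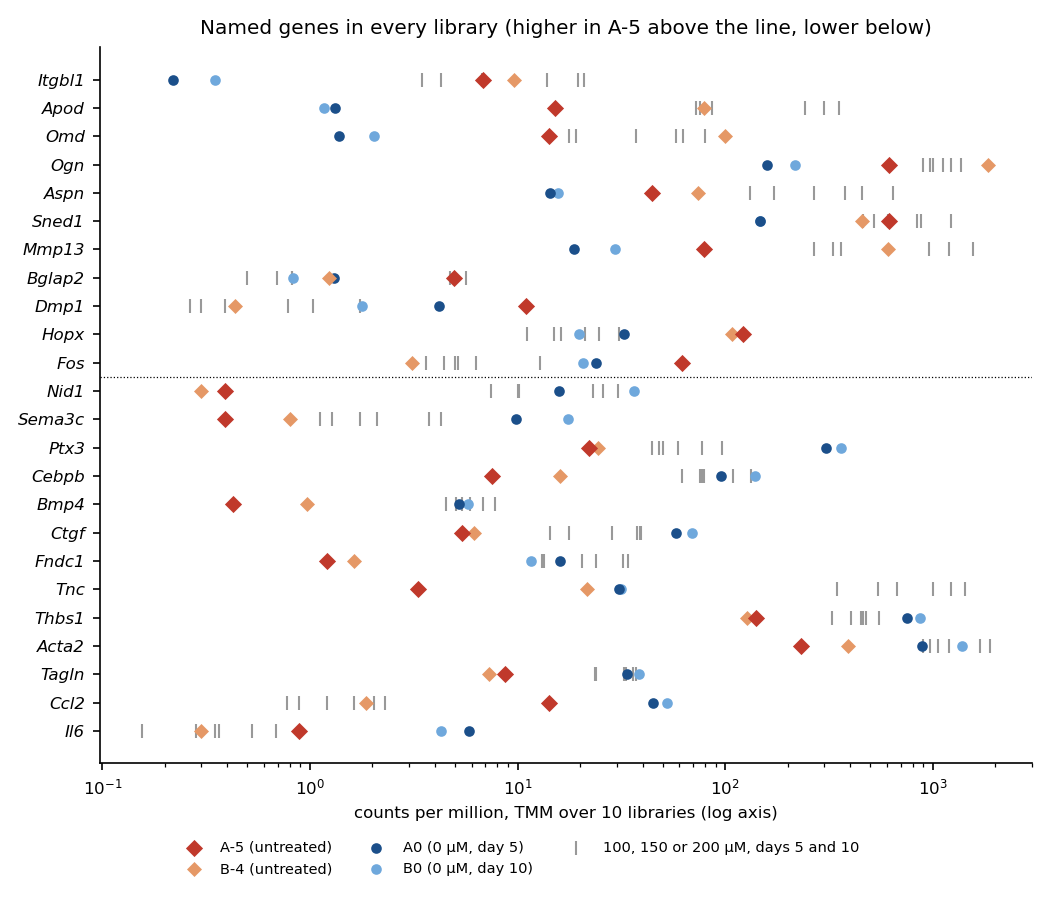
CPM (log scale) of 24 genes in each of the 10 libraries, with A-5, B-4, the 0 µM and the treated libraries marked apart. Nid1 is at 0.391 in A-5 and 0.2999 in B-4, and between 7.46 and 36.2 in the other 8.

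The largest ratios on the low side belong to AC154187.2, Gm8225 and Gm45062, loci without a gene name of known function. How uniquely their reads map was not tested. AC154187.2 had 0 counts in A-5, 2074 in A0 and 1586 in B0, at least 423-fold lower than the nearer library against a floor of 3 counts in A-5. Its level across the treated libraries ran from 0 to 54.5 CPM. Gm8225, a processed pseudogene, had 5 counts in A-5, 3301 in A0 and 1942 in B0. Gm45062 had 0, 188 and 714, at least 38.4-fold lower. These loci vary widely from library to library, also among the treated ones. The mapping of reads was not tested either for Gm3550 or for the serine protease inhibitors Serpina3f, Serpina3g, Serpina3i and Serpina3m on chromosome 12, which are members of a family of similar genes.

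Newly assembled loci, which the submitters added to the annotation, are 915 of the 12606 tested genes (7.26%), 63 of the 231 higher genes (27.3%) and 38 of the 300 lower ones (12.7%). They took 2.18% of counts in A-5, 1.84% in A0, 1.61% in B0 and 2.71% in B-4. What these loci are, and the part of depth in their values, was not tested. Without these loci, 168 higher and 262 lower genes remain.

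Some lists shift as a whole while few or none of their genes pass the limit. DNA replication genes, 27 tested, were all under both 0 µM libraries in A-5, with a median log2 difference of -0.58; 0 were 2-fold lower. Cell cycle genes, 26 tested, had a median of -0.58, with 23 under both and 3 above both. Hypoxia and glycolysis genes, 29 tested, had a median of -0.57 with 25 under both, and the oxygen sensor Egln3 (2.25 CPM in A-5, 4.67 in A0 and 4.89 in B0) and P4ha2 were the 2 lower genes. Over all tested genes the median was -0.03, and A-5 was under both for 46.6%. In the other direction, cholesterol synthesis and uptake genes, 24 tested, had a median of 0.31, with 23 above both 0 µM libraries and the cholesterol exporter Abca1 (4.57 CPM in A-5, 1.42 in A0 and 1.11 in B0) the single gene past the limit. Lysosome and autophagy genes, 25 tested, had a median of 0.31, with 20 above both, and the glycoprotein Gpnmb, at 291 CPM in A-5, 118 in A0 and 124 in B0, was the single higher gene. KEGG groups on like topics shift less. DNA replication in KEGG, 40 tested, had a median of -0.31, with 31 under both and 3 above both, and cell cycle, 124 tested, -0.22, with 83 and 30. Glycolysis, 56 tested, had -0.20, with 35 under both and 17 above both, 1 higher and 2 lower. HIF-1 signaling, 93 tested, had -0.23, with 2 higher and 7 lower. The lysosome group, 123 tested, had 0.10, with 62 above both and 38 under both, 0 higher and 1 lower, the sorting receptor Sorcs2. Steroid biosynthesis, 15 tested, had 0.28, with 11 above both and no member. Clock genes, 15 tested, had a median of 0.41 and no member. The 18 p53 targets had a median of 0.27 and the 14 heat shock genes 0.29, with no member in either, beside -0.05 for the 75 tested genes of p53 signaling in KEGG. Between A0 and B0 the medians of the replication and cell cycle lists were 0.12 and 0.09, higher on day 10.

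**Figure D3:**
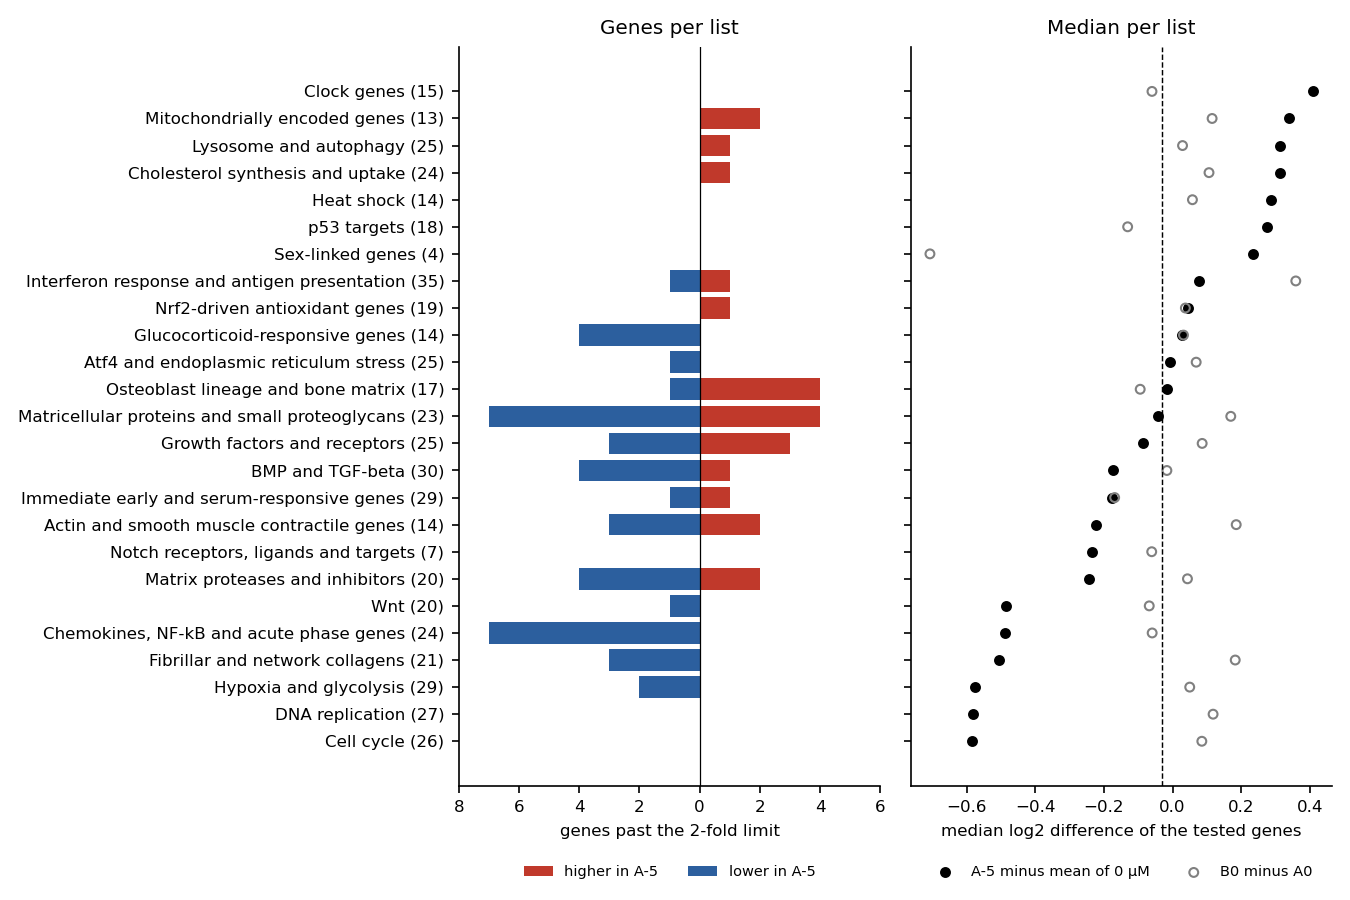
Left, genes past the 2-fold limit in each list, with the number tested in brackets; right, the median log2 difference of the tested genes, A-5 minus the 0 µM mean (filled) and B0 minus A0 (open), with a dashed line at the median of all tested genes, -0.03. Clock genes stand at 0.41 and cell cycle genes at -0.58.

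Library B-4 and the 6 treated libraries took no part in the choice of genes. B-4, the other untreated library, lay 2-fold or more under all 6 treated libraries for 606 of the 12606 tested genes (4.81%) and for 124 of the 300 genes lower in A-5 (41.3%). It lay 2-fold or more over all 6 for 224 tested genes (1.78%) and for 44 of the 231 higher genes (19.0%). On the opposite sides it lay under all 6 for 17 of the higher genes (7.36%) and over all 6 for 2 of the lower ones (0.667%). Treatment, time and library cannot be told apart in this, as B-4 has no time on its label and is 1 library. A-5 itself was within the range of the 6 treated libraries for 57 of the higher genes (24.7%) and 65 of the lower ones (21.7%), beside 4530 of all tested genes (35.9%).

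Some members lie within 200 kb of another: there are 38 such groups, 32 of 1 direction and 6 mixed, such as Fndc1, lower, beside Tagap, higher. How often neighbouring genes share a direction in general was not tested. Ecm2, Aspn, Omd and Ogn follow each other on chromosome 13, from 49504810 to 49624501 in GENCODE M21 coordinates, and all 4 are higher, with no tested gene between them that is not a member. Dmp1 and Ibsp are neighbours on chromosome 5, and Bglap and Bglap2 on chromosome 3, all higher. Ccl2 and Ccl7 are neighbours on chromosome 11 and both lower. Groups of close copies, such as Gstm1 and Gstm7 on chromosome 3 or the Serpina3 genes, may share reads.

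Promoters were read from RefSeq (GRCm38.p6) for the members with an entry, 126 of 168 higher and 190 of 262 lower genes with an Ensembl identifier. The letters TATAAA, on the gene's own strand in the last 60 bases before the start, were found in 14 of the 126 (11.1%) and in 10 of the 190 (5.26%). The share was 1.64% of the 9305 promoters of tested genes and 3.44% of all 27025. The letters GGAATG, on either strand in the 250 bases before the start, were in 13.5% of the higher, 17.4% of the lower, 12.3% of the tested and 14.4% of all promoters. TGANTCA, which reads the same on both strands, was in 9.52%, 8.95%, 5.42% and 7.82%. The motifs were chosen after the data were seen; a match is a description and not a site in use. The 60 bases before the start are printed for 5 higher genes of bone, hormone, immediate early, lipid and mesenchymal roles and 1 lower gene, Errfi1, a feedback inhibitor of growth factor receptors, with the match in capitals.
They lie at chr3:88384467-88384526 (Bglap, minus strand), chr8:124569707-124569766 (Agt, minus), chr12:85473830-85473889 (Fos, plus), chr4:53159896-53159955 (Abca1, minus), chr3:90603710-90603769 (S100a4, plus) and chr4:150855010-150855069 (Errfi1, plus).
Bglap: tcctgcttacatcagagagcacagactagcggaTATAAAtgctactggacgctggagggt
Agt: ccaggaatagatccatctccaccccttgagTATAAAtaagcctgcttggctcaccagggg
Fos: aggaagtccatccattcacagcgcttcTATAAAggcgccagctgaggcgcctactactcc
Abca1: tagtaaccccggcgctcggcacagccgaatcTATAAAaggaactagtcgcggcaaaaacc
S100a4: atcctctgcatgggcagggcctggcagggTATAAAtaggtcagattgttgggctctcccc
Errfi1: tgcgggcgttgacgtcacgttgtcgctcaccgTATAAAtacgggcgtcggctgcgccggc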

How the data were processed

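The submitters' processing notes name HISAT2 2.0.4 and GATK 3.2-2; the counting program, genome build and annotation are not given in the sources used here. Raw counts deposited by the authors were used as they are, and the authors' deposited FPKM (fragments scaled to length and depth) served to compare levels between genes; the authors' own edgeR columns in the same table were not used. The table has 29583 rows, 22036 with Ensembl identifiers and 7547 newly assembled loci. Differences are log2 CPM from edgeR 4.0.16 (limma 3.58.1, R 4.3.3), with TMM scaling over A-5, A0 and B0 and a prior count of 2, and printed CPM use TMM over 10 libraries. DESeq2 1.42.0 gave alternatives. Tables and plots used pandas 2.3.3, numpy 2.4.6, scipy 1.17.1, statsmodels 0.14.6 and matplotlib 3.10.9. Positions come from GENCODE M21 by Ensembl identifier (22022 matched).

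The members and lists were chosen with earlier results of these data known. Genes named are, by rule, members with a symbol: the 12 farthest from the nearer 0 µM library in each direction with a mean of at least 5 CPM, the 5 of highest CPM in each direction, up to 3 per list and direction, the 3 nearest the limit on each side, and a set list of osteoblast genes and cell markers. Ecm2, Podn, Fmod, Bgn, Prelp, Postn, Cyr61, Wisp2, Nos2, Steap4, Tmem100, Nfil3, Tagap and the Serpina3 genes were chosen after their values were seen. The steps were tested on simulated data. The alternatives were library totals, DESeq2 size factors, scaling over 10 libraries, other prior counts, minimum counts and fold limits, FPKM, Ensembl genes alone, each 0 µM library left out, both untreated libraries, edgeR and DESeq2 tests, and, added after seeing the data, a correction for GC content.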

Additional observations from a re-analysis of the deposited data

How the results depend on the processing

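Against 231 higher and 300 lower genes, the minimum count and the fold limit move the counts most. With at least 20 counts 389 genes were higher, with at least 200 counts 105 were higher and 191 lower, and with no minimum 1822 and 1020. With a limit of 1.5-fold 747 were higher and 954 lower, and with 4-fold 31 and 65. On log2(FPKM + 1), where the added 1 draws low values together, 70 were higher and 95 lower. These shifts follow from the construction of each setting. Leaving out a 0 µM library asks for less: 292 to 451 were higher and 421 to 481 lower, the larger counts without A0. When B-4 must also pass the limit, on values scaled over 10 libraries, 138 were higher and 220 lower, of which 138 and 211 are among the main genes. The other settings gave counts within 1.5 times the main ones: library totals, DESeq2 size factors, scaling over 10 libraries, other prior counts, 2 CPM, Ensembl genes alone, the edgeR and DESeq2 tests over 10 libraries, and the GC correction, which was added after seeing the data (229 higher, 302 lower). Like counts do not mean like genes. Of the 231 higher and 300 lower genes, the edgeR test shared 135 and 168, and the DESeq2 test 160 and 225. No dose and day has a replicate, so the spread in these tests comes from libraries that are not replicates. The count of 190 genes apart between A0 and B0 stayed within 1.5 times under each scaling and prior count tried. Depth limits genes near 50 counts: 135 of the lower genes had fewer in A-5.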

Other observations

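KEGG groups as the submitters annotated them add a few values. Over all tested genes 1.83% were higher and 2.38% lower. Of 72 tested genes in ECM-receptor interaction, 11 were higher (15.3%) and 8 lower (11.1%). Focal adhesion had 12 higher (6.56%) and 13 lower (7.1%) of 183. The cytokine receptor group had 3 higher (3.06%) and 11 lower (11.2%) of 98, among the lower Lifr and Il1r1. Oxidative phosphorylation had 2 higher (1.65%) and 0 lower of 121, with a median log2 difference of 0.14. Ribosome had 1 higher (0.654%) and 2 lower (1.31%) of 153, with -0.12. The 2 higher oxidative phosphorylation genes are mt-Nd3 and mt-Nd6, and the lower ribosome genes are the pseudogene Gm8225 and Gm3550. Among the lists written for these cells, 19 Nrf2-driven antioxidant genes had Gstm1 (363 CPM in A-5, 149 in A0 and 155 in B0) higher and a median of 0.05. Of 25 Atf4 and endoplasmic reticulum stress genes Vldlr was lower; the 7 Notch genes, with a median of -0.24, and the 4 sex-linked genes had no member.

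By GC content of the gene, in 5 groups of equal size from low to high, the median log2 difference of A-5 from the 0 µM mean was 0.09, -0.02, -0.06, -0.07 and -0.15, over 11689 genes with a GC value (92.7%). B0 minus A0 over the same groups was -0.04, -0.01, 0.01, 0.02 and 0.02. Chromosome 11, named because its median of -0.23 is the lowest of the chromosomes, had 8 higher and 26 lower of 958 tested genes. Over all 12606 tested genes 231 were higher (1.83%) and 300 lower (2.38%), with a median of -0.03. The cause of these shifts was not tested.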
